A study of Mus musculus with 12 samples.

Results

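The effect of Fra-1 loss in injured lung was taken as the difference between bleomycin-treated knockout mice (KOT) and bleomycin-treated wild-type mice (WTT). These were 6 of the 12 arrays of the series, chosen by their titles, and 23410 of the 35556 transcript clusters of the array, those with a gene symbol. WTT were the Fra-1+/+ mice 160, 161 and 164, and KOT were the Fra-1∆/∆ mice 72, 80 and 81. Each received 0.075 U of bleomycin in 30 µL of PBS through the trachea, and lung RNA of each mouse was measured on 1 array 5 days later. The PBS-treated groups, WTC (Fra-1+/+ mice 76, 157 and 158) and KOC (Fra-1∆/∆ mice 53, 55 and 67), gave the genotype difference without injury. All mice had a mixed C57/129S background and are labelled as females of 2 months. The methods give another age, and the sex-linked genes of 12 of 12 arrays did not match the labelled sex. The knockouts came from a floxed Fra-1 allele and a Meox2-Cre transgene that is active in the embryo. The deletion was thus not limited to a cell type of the lung. By the methods, the mice called Fra-1+/+, here wild type, carry the floxed allele without Cre. The presence of Cre therefore cannot be told apart from loss of Fra-1. Every KOT mouse has a lower animal number than every WTT mouse, and what goes with these numbers cannot be told apart from genotype. The arrays read as lung, with log2 values of the surfactant gene Sftpc from 13.64 to 13.90 after bleomycin.

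Fra-1, the product of Fosl1, is a member of the Fos family of transcription factors. It pairs with a Jun protein to form AP-1, which binds short DNA sites near genes that respond to stress, growth signals and injury. Bleomycin breaks DNA and injures the epithelium of the lung, after which neutrophils and monocytes enter and fibroblasts lay down collagen.

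Lungs of KOT and WTT mice differed in immunoglobulin transcripts and in H2-Ea, a class II histocompatibility gene, and all 10 clusters that passed the test were higher in KOT. Values are log2 expression, differences are KOT minus WTT with the standard error (SE) of a limma fit to all 12 arrays, and the threshold was 0.05 on the p adjusted by the Benjamini-Hochberg method. The 10 clusters were 0.0427% of those tested, and 0 (0.0%) were lower. At an unadjusted p under 0.05, 1000 clusters (4.27%) were higher and 1480 (6.32%) lower, a split that became 1118 and 1016 after cyclic loess normalization. LPE, the local-pooled-error test that the study's methods use, at an adjusted p under 0.01, called 130 clusters higher (0.555%) and 35 lower (0.15%). It takes the spread from clusters of similar level, not from the mice of the cluster itself. Its calls are thus no check on genes that vary between mice. The groups did not overlap in 1621 clusters with KOT higher (6.92%) and in 2061 with KOT lower (8.8%). These shares are the background for the gene lists that follow, and the median difference over all clusters was -0.01. Single mice decided much of the count. Without KOT 72 only H2-Ea passed, without WTT 161 H2-Ea and Meig1 were higher and Ngp lower, and without WTT 160 there were 3 higher and 4 lower (Adam12, Ear6, Htr2a and Peg3). Without another 1 of the 12 mice the count was 5 to 16.

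**Figure D1:**
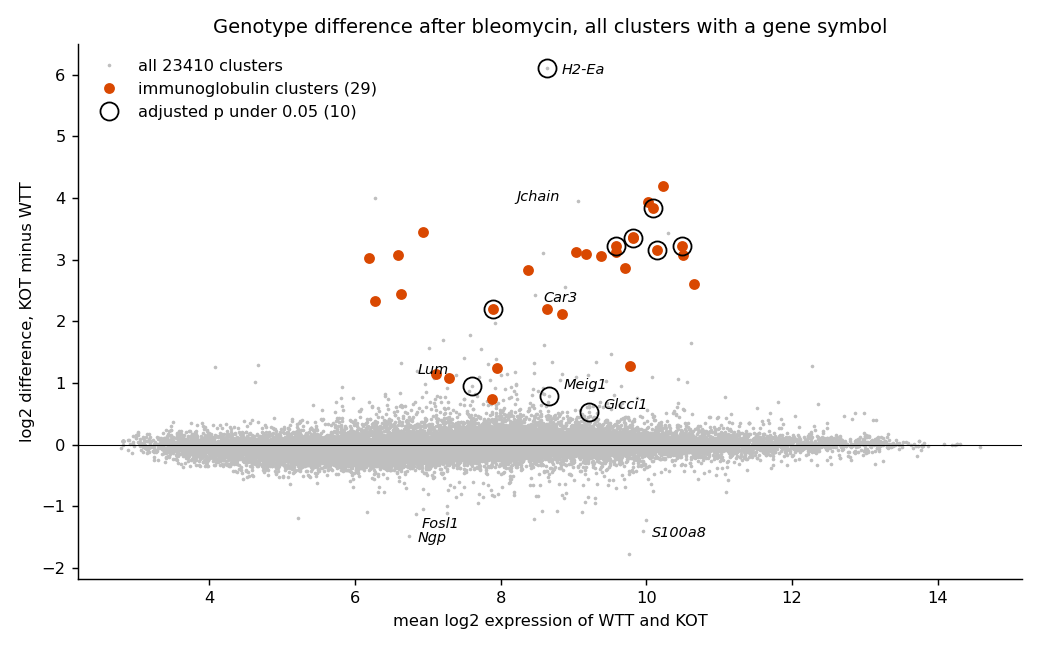
Log2 difference KOT minus WTT (vertical axis) against the mean log2 expression of both groups (horizontal axis), 1 point for each of 23410 clusters. The 29 immunoglobulin clusters (filled circles) lie between 0.74 and 4.19, and the 10 clusters past the test (rings) all lie above 0.

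Fosl1 itself checks the labels only in part, since the probe table does not say whether its probes read the deleted stretch. It lay at 7.81, 8.19 and 8.32 in the WTT mice and at 7.33, 7.32 and 7.28 in the KOT mice. The 3 KOT mice were below all WTT mice and close to each other, but the difference of -0.80 (SE 0.15, adjusted p = 0.16 from limma) did not pass the test. With PBS the difference was -0.16. Among 18 measured genes of the AP-1 family 0 passed, 14 had a negative difference and the median was -0.12 (0.02 with PBS). This median rested on WTT 164, without which it was 0.00. Fos, a founding member of the family, lay at 8.60, 8.15 and 8.53 in WTT and at 7.81 ± 0.19 in KOT (SD, n = 3), a difference of -0.62 (SE 0.16, adjusted p = 0.27). Fosb differed by -0.43 (SE 0.26), and for these 3 Fos genes the groups did not overlap. The other 15 members, with the Jun, Atf, Maf and Batf genes, lay between -0.21 and 0.17 and overlapped between groups. The median of 20 immediate early genes, which signals switch on within minutes, was -0.17 (0.01 with PBS), with 16 of 20 differences negative, and it was -0.04 without WTT 164.

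AP-1 sites were looked for in the RefSeq promoters of build GRCm38.p6, each from 250 bases before to 50 bases after a transcription start. The letters searched were TGACTCA and TGAGTCA, which are reverse complements, so both strands were read. They stood in the promoters of 5.41% of 15614 genes with a cluster of 1 symbol and in 5.95% of all 27025 genes of the table. Of the genes whose KOT mice all lay below WTT with an unadjusted p under 0.05, 62 of 782 (7.93%) held a match, and of those with all KOT mice above, 18 of 504 (3.57%) did. These shares are descriptions and were not tested. Chosen because they hold a match and have the smallest p on each side, the sequences are the promoters of Ang4, a ribonuclease of the angiogenin family, and of Rdh9, a retinol dehydrogenase, both lower in every KOT mouse, and of Rfx5, which encodes a factor of class II histocompatibility promoters, and P2ry14, a receptor for UDP-sugars, both higher in every KOT mouse. Capitals mark the match.
Ang4, chr14:51773541-51773840, minus strand: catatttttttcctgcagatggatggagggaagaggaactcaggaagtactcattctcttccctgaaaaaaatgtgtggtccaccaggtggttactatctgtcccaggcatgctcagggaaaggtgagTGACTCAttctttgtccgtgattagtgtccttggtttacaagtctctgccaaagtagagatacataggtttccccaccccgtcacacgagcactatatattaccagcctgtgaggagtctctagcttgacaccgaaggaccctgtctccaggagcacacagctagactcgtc
Rdh9, chr10:127776155-127776454, plus strand: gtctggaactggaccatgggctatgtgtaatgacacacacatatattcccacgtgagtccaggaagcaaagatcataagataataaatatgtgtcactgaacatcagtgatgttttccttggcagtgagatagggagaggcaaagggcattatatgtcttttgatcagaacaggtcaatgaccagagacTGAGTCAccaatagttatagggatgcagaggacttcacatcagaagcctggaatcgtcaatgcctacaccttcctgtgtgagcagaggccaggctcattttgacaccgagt
Rfx5, chr3:94953858-94954157, plus strand: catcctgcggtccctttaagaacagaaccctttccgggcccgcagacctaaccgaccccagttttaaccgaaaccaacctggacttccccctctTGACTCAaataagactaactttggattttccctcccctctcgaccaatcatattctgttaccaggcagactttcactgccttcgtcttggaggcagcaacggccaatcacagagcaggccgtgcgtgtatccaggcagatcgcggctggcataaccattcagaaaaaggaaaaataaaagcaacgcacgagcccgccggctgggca
P2ry14, chr3:59153443-59153742, minus strand: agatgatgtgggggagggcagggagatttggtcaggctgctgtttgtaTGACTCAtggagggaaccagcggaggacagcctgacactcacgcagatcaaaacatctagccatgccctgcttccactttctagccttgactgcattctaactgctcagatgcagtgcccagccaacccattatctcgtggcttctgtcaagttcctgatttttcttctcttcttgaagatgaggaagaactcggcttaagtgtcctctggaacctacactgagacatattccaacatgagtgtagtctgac
Relative to the transcription start, the match begins at -122 in Ang4, -61 in Rdh9, -156 in Rfx5 and -202 in P2ry14, at 1 of its 4 starts. Ang4 differed by -0.53 (SE 0.11), Rdh9 by -0.36 (SE 0.07), Rfx5 by 0.37 (SE 0.09) and P2ry14 by 0.30 (SE 0.07), and 0 of the 4 passed the test (adjusted p from 0.16 to 0.246). With PBS the differences were 0.05 for Ang4, 0.03 for Rdh9, 0.06 for Rfx5 and 0.46 for P2ry14. P2ry14 was thus higher in every knockout mouse without injury too. Ang4 and Rdh9 lay below the array medians in both groups, with WTT means of 6.70 and 6.05. The windows of Meig1 (3 starts) and Glcci1 (2 starts), which passed, hold no match.

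4 genes with a cluster of their own passed the test, each higher in KOT. H2-Ea, which encodes the alpha chain of the class II molecule I-E and is silent in mice of the H2b haplotype such as C57BL/6, lay at 5.20, 5.83 and 5.75 in WTT and at 11.58, 11.79 and 11.71 in KOT. The difference was 6.10 (SE 0.17, adjusted p = 5.6e-09), and it was the same kind of split with PBS, where WTC lay at 6.01, 5.75 and 5.71 and KOC at 11.46, 11.34 and 11.80 (difference 5.71). H2-Ea thus separated all 6 knockout from all 6 wild-type mice, with or without injury, and passed without any 1 of the 12 mice. The H2 haplotype of the mice is not given in the sources used here. A haplotype that goes with the knockout therefore cannot be told apart from loss of Fra-1, and this was not tested. Meig1, which motile cilia and sperm tails need, lay at 8.32, 8.39 and 8.10 in WTT and at 9.04, 9.17 and 8.99 in KOT, a difference of 0.80 (SE 0.09, adjusted p = 0.0145). With PBS its difference was 0.01, and the difference between the 2 (0.79, SE 0.13) had a limma p of 7.7e-05 and an adjusted p of 0.45. Meig1 did not pass without KOT 72 or without KOT 80, nor by LPE or in a fit of the 6 bleomycin arrays alone. Lum, which encodes the collagen-binding proteoglycan lumican, lay at 7.12, 7.11 and 7.18 in WTT and at 8.24, 8.10 and 7.91 in KOT (difference 0.95, SE 0.13, adjusted p = 0.0367; 0.50 with PBS). Glcci1, a gene that glucocorticoids induce, lay at 8.86, 8.99 and 8.97 in WTT and at 9.54, 9.41 and 9.47 in KOT (difference 0.53, SE 0.07, adjusted p = 0.0329; 0.20 with PBS). Lum and Glcci1 passed in 4 of the 12 fits that each leave out 1 mouse. Neither passed over all clusters of the array or over clusters with exactly 1 symbol, nor did Lum with trended and robust moderation or Glcci1 by LPE or in the 6-array fit.

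**Figure D2:**
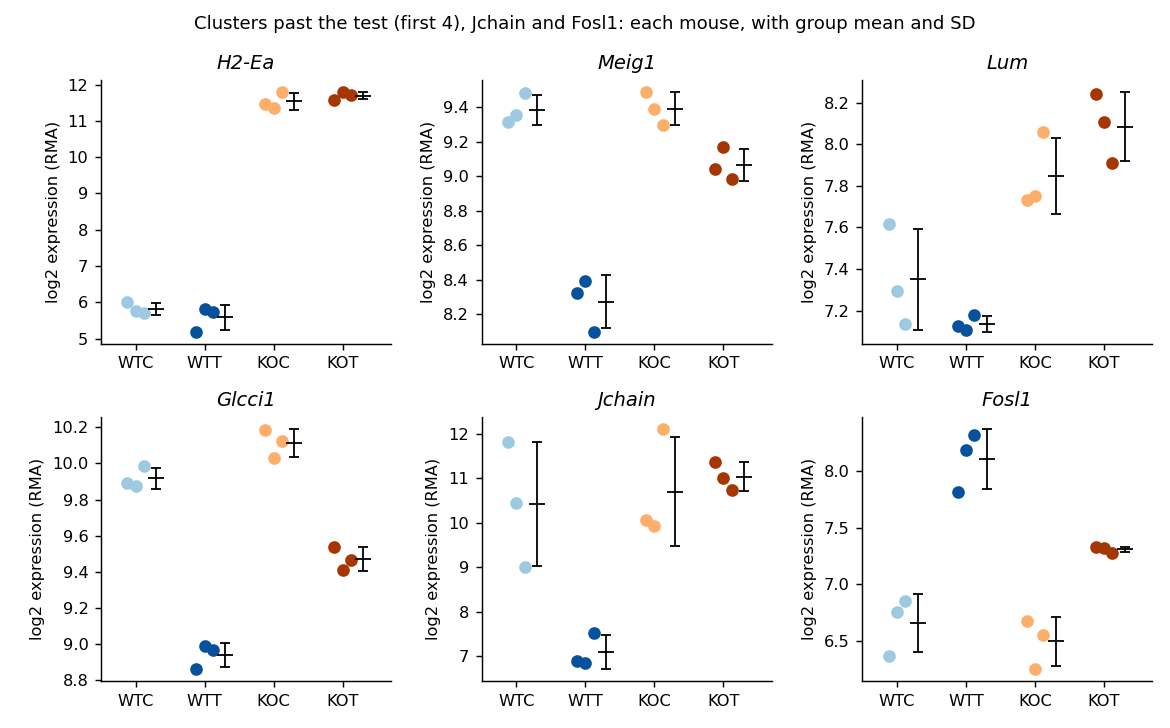
Log2 expression of 6 genes in each of 12 mice (points) with the mean and SD of each group of 3 (bars to the right). H2-Ea lies above 11 in both knockout groups and at 6.01 or below in both wild-type groups, and Jchain lies below 8 in WTT and above 9 in each other mouse.

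Against PBS, Meig1 fell by 1.11 in Fra-1+/+ mice (adjusted p = 8.2e-05) and by 0.33 in Fra-1∆/∆ mice (adjusted p = 0.035), and Glcci1 fell by 0.98 and by 0.64. These responses share the WTT and KOT arrays with the comparison of genotypes, so they are given side by side and are no separate evidence.

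Immunoglobulin transcripts, the products of B cells and plasma cells, made up the other 6 clusters that passed. Each carries several gene symbols, all of them kappa light chain genes in 4 clusters (2.20 to 3.22) and all of them heavy chain genes in 2 (3.35 and 3.84). None of the 6 passed with trended and robust moderation or without KOT 72, and both heavy chain clusters and the kappa cluster at 2.20 passed in 4 of the 12 fits that each leave out 1 mouse. The group was then widened, after these values were seen, to all 29 clusters whose symbols are only immunoglobulin genes, with 10 heavy chain, 17 kappa and 2 lambda clusters. All 29 differences were positive, from 0.74 to 4.19 with a median of 3.05, and in 28 of 29 the lowest KOT mouse exceeded the highest WTT mouse. At an unadjusted p under 0.05, 26 of 29 were higher. The median level over the 29 clusters was 7.54, 7.69 and 7.95 in WTT 160, 161 and 164, and 10.48, 10.50 and 10.35 in KOT 72, 80 and 81. With PBS the groups overlapped in 27 of 29 clusters, with a median difference of 0.42 and levels from 8.99 to 10.84 in WTC and from 9.08 to 11.20 in KOC. So WTT stood apart from the 3 other groups. Bleomycin against PBS gave a median of -2.55 over these clusters in Fra-1+/+ mice and of -0.01 in Fra-1∆/∆ mice, comparisons that share arrays with the difference between genotypes. The genotype difference with bleomycin exceeded that with PBS at an unadjusted p under 0.05 in 19 of 29 clusters, beside 5.1% of all clusters in either direction, but 0 passed after adjustment. Several of these clusters share gene symbols and may read the same transcripts, so the 29 are not independent of each other. In whole lung, moreover, fewer cells of a type and less RNA per cell cannot be told apart.

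**Figure D3:**
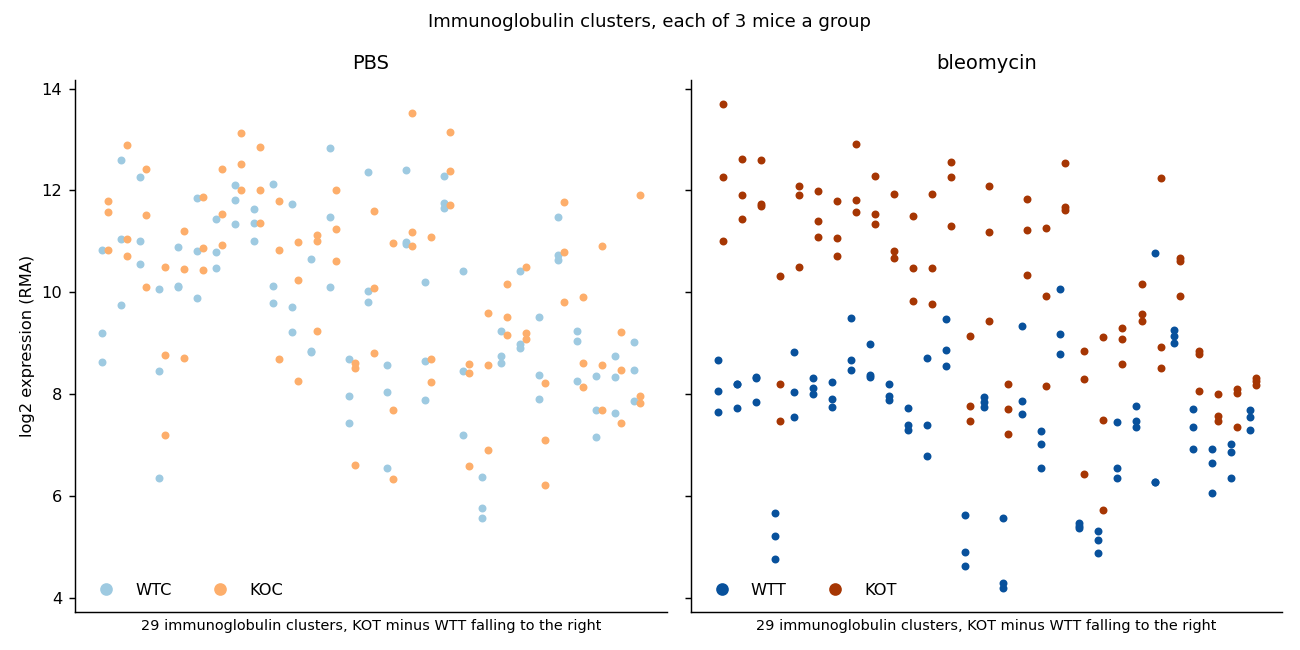
Log2 expression (vertical axis) of 29 immunoglobulin clusters in the 3 mice of each group, PBS on the left and bleomycin on the right, in the same order of clusters. The groups overlap in 27 of 29 clusters with PBS, and in 28 of 29 all KOT mice lie above all WTT mice.

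Genes of antibody secretion with a cluster of their own lay on the same side but did not pass. Jchain, the joining chain of IgA and IgM, lay at 6.90, 6.85 and 7.53 in WTT and at 11.37, 11.01 and 10.74 in KOT, a 15.4-fold difference (3.95, SE 0.66, adjusted p = 0.092). With PBS it ranged from 9.02 to 11.81 in WTC and from 9.92 to 12.11 in KOC. Its groups were far apart with bleomycin, while the PBS-treated mice of each group were spread widely, and this spread enters the SE. A kappa variable gene had the largest difference of a single immunoglobulin gene at 4.19 (SE 0.65, adjusted p = 0.063), while its other cluster was at 0.74. The mu heavy chain Ighm, at the cluster with the highest level, differed by 3.05 (SE 0.82, adjusted p = 0.28), and the plasma cell genes Mzb1 by 1.40 (SE 0.39), Derl3 by 1.09 (SE 0.42) and Irf4 by 1.08 (SE 0.38). In all of these every KOT mouse was above every WTT mouse. A cluster listed as Adck1, a kinase-like gene, differed by 3.996 (SE 0.63, adjusted p = 0.073), though the other Adck1 cluster differed by 0.01. Over the fixed list of 11 plasma cell markers the median was 0.25 (0.18 without KOT 81 and 0.43 without KOT 80), and 5 had KOT above WTT in every mouse. Jchain passed without WTC 76, without WTC 158 or without KOC 67, and also by LPE, in a fit of the 6 bleomycin arrays alone and with array weights.

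B cell markers showed the largest list difference of all, with a median of 0.83 over 20 genes against -0.01 for all clusters (0.02 with PBS). All 20 were positive, 14 had every KOT mouse above every WTT mouse, 9 had an unadjusted p under 0.05, and 0 passed after adjustment by limma (10 by LPE). Cd79a, a chain of the B cell receptor complex, lay at 8.99, 8.18 and 8.74 in WTT and at 10.54, 9.82 and 9.57 in KOT (difference 1.34, SE 0.43, adjusted p = 0.33). Its partner Cd79b differed by 1.03 (SE 0.34) and Ms4a1, which encodes CD20, by 1.31 (SE 0.56). Cd79a and Ms4a1 are among the members that are also in the study's own table for this comparison, which was chosen on these mice. The list is therefore not independent of that table. The median over the list varied with single mice: KOT 72 was highest at 0.90 above the mean of the 6 bleomycin arrays, with KOT 80 at 0.12 and KOT 81 at 0.23, while WTT 160, 161 and 164 lay at -0.12, -0.65 and -0.51. Without KOT 72 the median was 0.61, the lowest value with any mouse left out.

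T cell genes were positive in 21 of 21 cases with a median of 0.42, 10 had every KOT mouse above WTT and 3 had an unadjusted p under 0.05. Over the list the groups overlapped, with WTT 160 at 0.08 and KOT 81 at 0.07, and the median was 0.23 without WTT 164. The T cell receptor genes Cd3e (0.55, SE 0.26) and Cd3g (0.78, SE 0.34) and the co-receptor Cd4 (0.71, SE 0.32) were among these, while Cd8a differed by 0.10. For genes of activated and regulatory T cells the median was 0.53, with 17 of 18 positive, 13 of 18 without overlap and 10 at an unadjusted p under 0.05. Foxp3, the factor that defines regulatory T cells, lay at 7.87, 7.89 and 7.71 in WTT and at 8.14, 8.24 and 8.22 in KOT (0.38, SE 0.09, adjusted p = 0.21), and the chemokine receptor Ccr8 at 5.95, 5.80 and 5.80 against 6.47, 6.40 and 6.72 (0.69, SE 0.15, adjusted p = 0.21). These 2 genes varied little within groups, so their small differences exceeded the spread of the mice. Gata3, the factor of type 2 helper T cells, differed by 0.59 (SE 0.16) and the receptor Ccr4 by 0.92 (SE 0.33). None of the T cell genes passed over all clusters. Markers of NK and cytotoxic cells had a median of 0.28, with 15 of 18 positive and 2 of 18 without overlap, and it ranged from 0.17 without WTT 164 to 0.43 without WTT 160.

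Of the genes of antigen presentation, class II lay on the same side, while class I separated the groups less. Over 16 genes of class I and antigen processing the median was 0.13 (-0.07 with PBS), and 15 of 16 were positive. However, 0 of 16 had every KOT mouse above WTT and 1 had every KOT mouse below. The median of this list in KOT 80 was -0.19, below all WTT mice. Of 9 class II histocompatibility genes 9 were positive, 7 had every KOT mouse above WTT, and the median was 0.35 (-0.04 with PBS). H2-Ea passed and is described above. The others did not, among them the invariant chain Cd74 at 12.40, 12.39 and 12.14 in WTT and 12.66, 12.68 and 12.62 in KOT (0.35, SE 0.09, adjusted p = 0.28), the class II transactivator Ciita (0.69, SE 0.22) and the peptide-loading gene H2-DMa (0.45, SE 0.15). Xcr1 and Clec9a, which mark the cross-presenting dendritic cells, were also without overlap. Xcr1, a chemokine receptor, lay at 7.62, 7.69 and 7.07 in WTT and at 8.47, 8.41 and 8.25 in KOT (0.92, SE 0.17, adjusted p = 0.16). The lectin Clec9a lay at 7.44, 7.33 and 7.24 against 7.77, 7.98 and 7.98 (0.57, SE 0.10, adjusted p = 0.11). Batf3, also a marker on the dendritic cell list, showed no such split, with a mean of 7.28 in WTT and 7.27 in KOT. The 14 dendritic cell markers had a median of 0.35, with 0.21 already with PBS, 10 of 14 were positive and 6 had every KOT mouse above WTT. Zbtb46, a transcription factor of classical dendritic cells, lay on the other side in every KOT mouse (-0.21, SE 0.07). The list of B cell markers lay on the same side (0.83), and its part in the class II result was not tested.

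**Figure D4:**
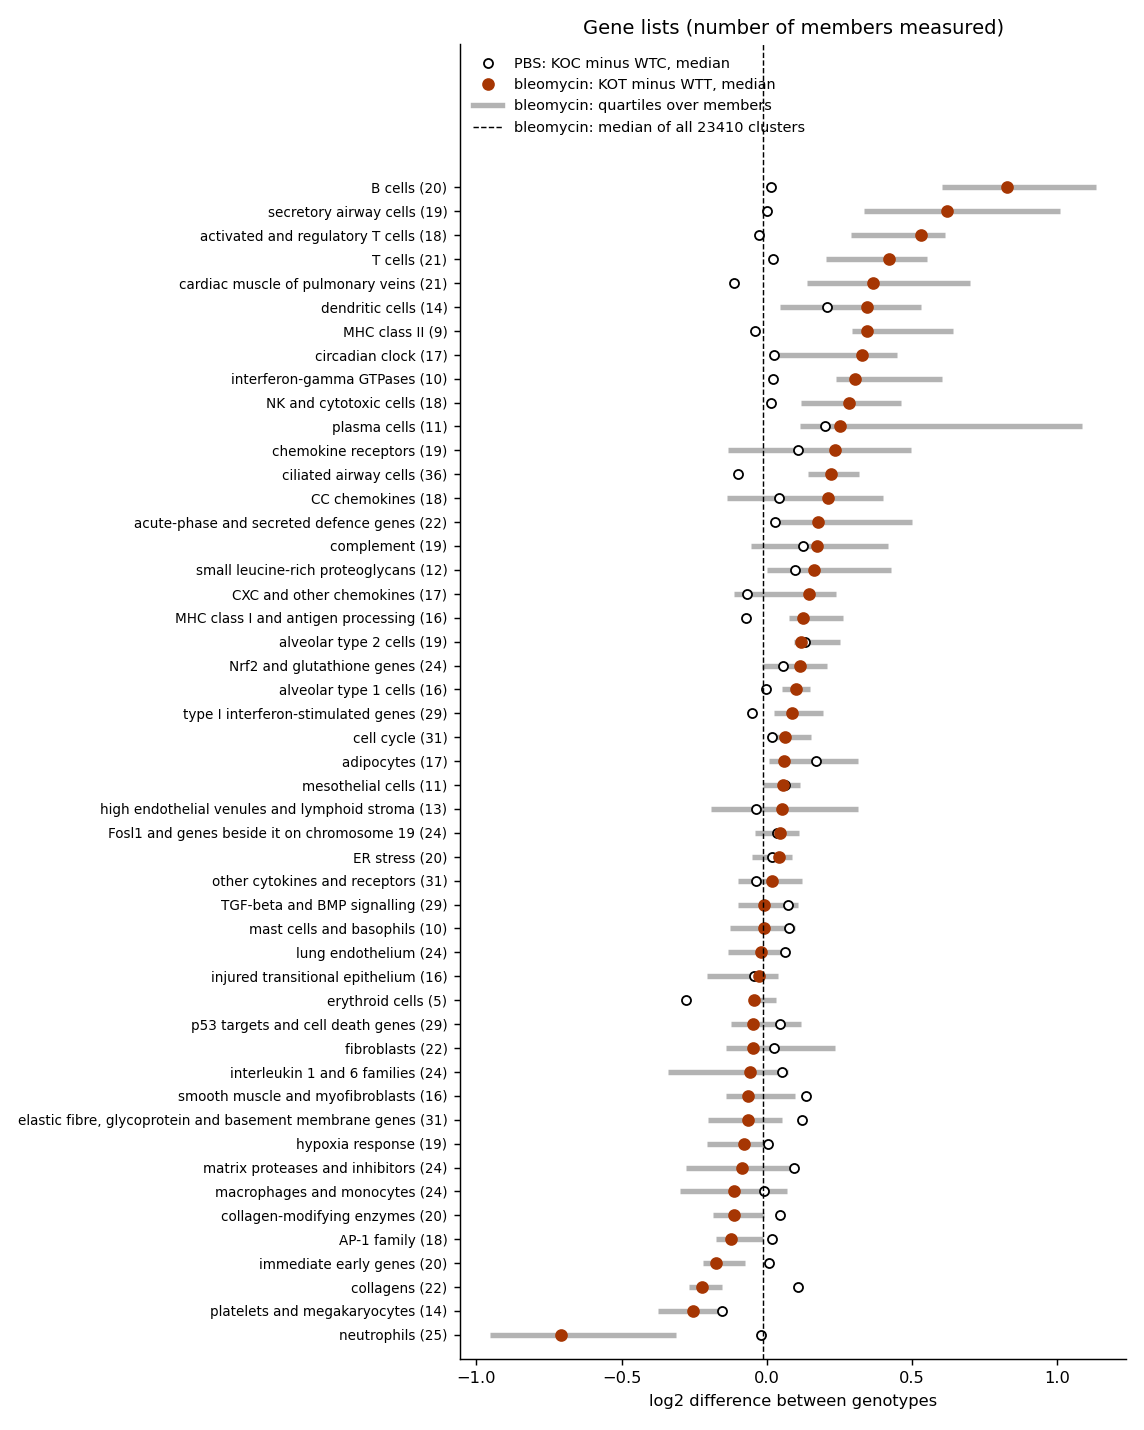
Median log2 difference between genotypes for each gene list, with bleomycin (filled circles, with the quartiles over members as bars) and with PBS (open circles), and the number of members in brackets. With bleomycin the B cell list is highest at 0.83 and the neutrophil list lowest at -0.71, while with PBS these 2 lie at 0.02 and -0.02.

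Secretory airway genes had a median of 0.62 (0.00 with PBS), 17 of 19 were positive and 8 of 19 had KOT above WTT in every mouse. Scgb3a1, a secretoglobin, lay at 11.31, 12.34 and 11.27 in WTT and at 12.98, 12.92 and 12.86 in KOT (1.28, SE 0.29, adjusted p = 0.21). The mucin Muc5b differed by 1.12 (SE 0.37) and Chad by 1.05 (SE 0.26), whereas Scgb1a1, the defining club cell gene, differed by 0.02. For ciliated cells 35 of 36 genes were positive, 18 did not overlap, 16 had an unadjusted p under 0.05 and 1, Meig1, passed, with a median of 0.22 (-0.10 with PBS). Rsph4a, a gene of the radial spokes of cilia, lay at 8.39, 8.30 and 8.24 in WTT and at 8.74, 8.97 and 8.69 in KOT (0.49, SE 0.11, adjusted p = 0.21), and Foxj1, the factor of motile cilia, differed by 0.29 (SE 0.09). By comparison, alveolar type 2 and type 1 markers had medians of 0.12 and 0.10, which were -0.02 and -0.01 without KOT 80, and lung endothelium -0.02. Against PBS the secretory list had a median of -1.20 and the ciliated list of -0.59 in Fra-1+/+ mice. Both lists were also lower with bleomycin in Fra-1∆/∆ mice. Against the mean of the 6 bleomycin arrays, the secretory list lay at 0.74, 0.94 and 1.01 in KOC and at 0.31, 0.43 and 0.04 in KOT. The ciliated list lay at 0.35, 0.24 and 0.48 in KOC and at 0.06, 0.23 and 0.05 in KOT. These responses share arrays with the comparison of genotypes.

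Cardiac muscle and clock genes also lay above background. Markers of the cardiac muscle around pulmonary veins, which lung samples take up in varying amounts, had a median of 0.37 with 18 of 21 positive and 11 of 21 above WTT in every KOT mouse. The atrial light chain Myl4 lay at 10.22, 10.43 and 9.49 in WTT and at 11.04, 11.33 and 10.80 in KOT (1.01, SE 0.31, adjusted p = 0.33). Its part in the other results was not tested. In the circadian clock list the median was 0.33 (0.02 with PBS), 4 of 17 genes had every KOT mouse above WTT, and without KOT 80 the median was 0.20. Nr1d1, a repressor of the clock, lay at 10.32, 9.997 and 9.96 in WTT and at 10.77, 11.10 and 10.44 in KOT (0.68, SE 0.15, adjusted p = 0.21), and the output factor Dbp differed by 1.14 (SE 0.34), while Nfil3, which acts against Dbp, was at -0.64 (SE 0.23). The hour of sampling is not given in the sources used here. Outside the lists, the large differences of single genes that did not pass included Car3, a carbonic anhydrase of muscle and fat (2.42, SE 0.59), and Pianp (1.56, SE 0.40).

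Collagen genes lay on the lower side. Of 22 collagens 19 were negative, 12 had every KOT mouse below every WTT mouse, 0 passed, and 10 reached an unadjusted p under 0.05 on the lower side. The median was -0.22, against 0.11 with PBS. Col6a3, a chain of the pericellular collagen VI, lay at 10.14, 10.51 and 10.22 in WTT and at 9.93, 9.67 and 9.64 in KOT (-0.55, SE 0.12, adjusted p = 0.21). Col5a3 lay at 7.66, 7.82 and 7.67 against 7.37, 7.31 and 7.24 (-0.41, SE 0.08, adjusted p = 0.17), and the main fibrillar chain Col1a1 at 11.80, 12.24 and 11.69 against 11.62, 11.31 and 11.64 (-0.38, SE 0.16). Col3a1 differed by -0.20 (SE 0.15) with overlap. The differences of all 22 lay between -0.55 and 0.17. Serpinh1, the collagen chaperone, differed by -0.40 (SE 0.12). Other matrix genes were less one-sided: 10 of 31 elastic fibre, glycoprotein and basement membrane genes were positive with a median of -0.06, and 10 of 24 matrix proteases and inhibitors with a median of -0.08 (0.00 without WTT 161). Among the lower ones, Tnc, which encodes tenascin C, lay at 11.20, 11.43 and 11.82 in WTT and at 10.99, 10.29 and 10.87 in KOT (-0.77, SE 0.24, adjusted p = 0.33). Fbln2 differed by -0.66 (SE 0.18), the metalloprotease Adam12 by -0.69 (SE 0.16) and Cemip, which takes part in hyaluronan breakdown, by -0.84 (SE 0.21), each with all KOT mice below WTT. Lum and Dcn (0.47, SE 0.10), both proteoglycans of the collagen fibril, were on the other side. In the list of 12 small leucine-rich proteoglycans that holds them, 9 were positive and the median was 0.16 (0.10 with PBS). With 1 mouse left out this median fell to as low as 0.01. Over the list the groups overlapped, with KOT 81 at -0.09 and WTT 161 at -0.04. Fmod, of the same list, was lower in KOT, with a mean of 7.58 against 8.05 in WTT (adjusted p = 0.35 from limma).

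Tnc rose with bleomycin by 3.50 in Fra-1+/+ mice (adjusted p = 5.4e-05) and by 2.34 in Fra-1∆/∆ mice (adjusted p = 4.2e-04), and Col1a1 by 1.45 and 0.99, so both genotypes had raised these genes. For Col6a3 the rise of 1.07 in Fra-1+/+ mice passed the test (adjusted p = 3.6e-04) and the value of 0.31 in Fra-1∆/∆ mice did not (adjusted p = 0.11). The 2 responses of Col6a3 differed by -0.76 (SE 0.17) with a limma p of 0.001 and an adjusted p of 0.85. Over all clusters the difference of responses passed in 0 of 23410 by limma, with 1193 at an unadjusted p under 0.05 and a smallest adjusted p of 0.117. Genes that carry the TGF-beta signal had a median of -0.01, with Tgfb1 at -0.10 (SE 0.09), fibroblast markers one of -0.05, and the smooth muscle actin Acta2 differed by -0.33 (SE 0.15).

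Neutrophil genes had the most negative list median, -0.71 over 25 genes with 23 of 25 negative, but it rested on single mice. S100a8, an abundant neutrophil protein, lay at 9.02, 10.81 and 12.11 in WTT and at 9.42, 8.27 and 10.07 in KOT (-1.39, SE 0.62, adjusted p = 0.46). WTT 160 was as low as the PBS-treated mice, which lay between 9.02 and 9.56, and WTT 164 was far above all others. The median over the list was -0.76, 0.40 and 1.46 in WTT 160, 161 and 164, and -0.19, -0.95 and 0.24 in KOT 72, 80 and 81, as differences from the mean of the 6. It moved to -0.16 without WTT 164 and to -1.36 without WTT 160. Only Ngp, a granule protein of immature neutrophils, was without overlap: it lay at 7.52, 6.78 and 8.13 in WTT and at 6.06, 5.95 and 5.998 in KOT (-1.48, SE 0.26, adjusted p = 0.12). The KOT mice were all in the range of the PBS-treated mice (5.82 to 6.57) for this gene, and Ngp passed when WTT 161 was left out. LPE called 11 of the 25 genes lower and 0 higher, but it does not use the spread of each gene between these mice. S100a8 is also among the genes of the study's own table for this comparison, which was chosen on these mice.

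**Figure D5:**
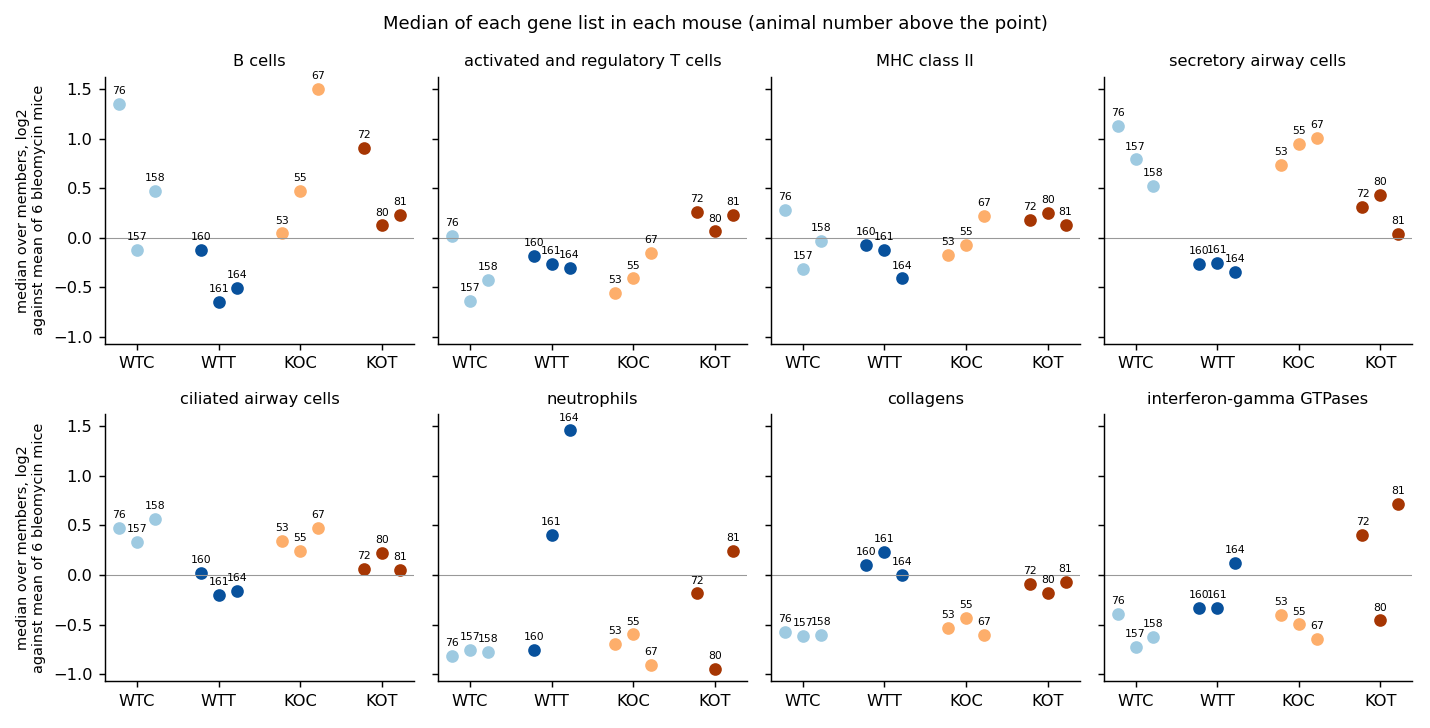
Median over the members of 8 gene lists in each mouse, on the log2 scale as the difference from the mean of the 6 bleomycin arrays (animal numbers above the points). The 3 WTT and 3 KOT mice do not overlap except for the neutrophil list, which spans from -0.76 to 1.46 within WTT, and the interferon-gamma GTPases, where KOT 80 lies at -0.46.

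Platelet genes were below WTT too, with a median of -0.25 (-0.15 with PBS), 12 of 14 negative and 6 of 14 without overlap. The platelet chemokine Ppbp lay at 9.83, 10.18 and 9.28 in WTT and at 8.72, 9.22 and 8.54 in KOT (-0.94, SE 0.36, adjusted p = 0.4), and the platelet tubulin Tubb1 differed by -0.55 (SE 0.19). Of single genes outside these lists, the serotonin receptor Htr2a lay at 7.83, 8.46 and 8.41 in WTT and at 7.40, 7.44 and 7.67 in KOT (-0.73, SE 0.15, adjusted p = 0.17), and the Wnt amplifier Rspo3 differed by -0.72 (SE 0.18). Macrophage and monocyte markers had a median of -0.11 (-0.22 without WTT 160 and -0.03 without KOT 80), with 0 of 24 without overlap.

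Interferon genes split the KOT mice. The guanylate-binding proteins and related GTPases that interferon-gamma induces were positive in 10 of 10 cases with a median of 0.30, yet 1 of 10 did not overlap. That gene, Gbp4, lay at 9.01, 9.06 and 9.44 in WTT and at 10.15, 9.57 and 10.63 in KOT (0.95, SE 0.23, adjusted p = 0.25). The list was at 0.41 in KOT 72 and 0.72 in KOT 81 but at -0.46 in KOT 80, below all WTT mice, and its median moved from 0.07 without KOT 81 to 0.68 without KOT 80. For 29 genes of the type I interferon response the median was 0.09, with 0 of 29 without overlap, and it was -0.16 without KOT 81 and 0.47 without KOT 80. Lists for the cell cycle (0.06), hypoxia (-0.08), endoplasmic reticulum stress (0.04), p53 targets (-0.05) and the neighbours of Fosl1 on its chromosome (0.04) stayed near the median of all clusters. Of the 51 genes in the study's own table for this comparison, 45 were measured here by a cluster with 1 symbol, 18 were higher and 4 lower at an unadjusted p under 0.05, and 0 passed by limma. LPE called 29 of the 45 higher and 9 lower. That list was chosen on these same mice and is no independent evidence of its direction. Several of the lists above share genes with it, among them Cd79a and Ms4a1 (B cells), S100a8 (neutrophils), Cd4 (T cells), Ppbp (platelets) and Gbp4. Their counts and medians are to that extent not independent of it either.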

How the data were processed

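Lung RNA of 12 mice was hybridised to 1-colour Affymetrix mouse gene arrays, 1 per mouse. The authors normalized probe signals by quantiles, and used RMA in Affymetrix Power Tools to give 1 value per transcript cluster (version not given in the sources used here). They deposited log2 values with array medians between 7.14 and 7.22 (mean correlation within groups 0.987 to 0.991). Quantile normalization removes shifts that all genes share. No further normalization was applied, and their filter on detection above background was not used.

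GEO's probe table gives 21789 of 35556 clusters 1 gene symbol, 1621 several and 12146 none. Tests ran on the 23410 with any symbol. Only clusters with 1 symbol give a gene name, at the cluster of highest mean level where a gene has several. The array's genome build is not given in the sources used here.

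Groups were taken from the titles. A mean per group was fitted to all 12 arrays (8 residual degrees of freedom) with limma 3.58.1 and statmod 1.5.0 in R 4.3.3, with Benjamini-Hochberg adjustment over the 23410 clusters at 0.05 and two-sided p. The SE thus also holds the spread of the PBS groups. LPE was written anew in R (100 bins, spline of 10 degrees of freedom). Precision is limited by the number of arrays, since 3 against 3 mice cannot give an exact two-sided p below 0.1. The fits were tested on simulated data.

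The comparison, the 50 gene lists and the alternatives were chosen with earlier results of these data known. Lists were described by counts and medians beside all clusters, with no set test. The rule for named genes takes Fosl1 and the AP-1 family, every cluster past the threshold, the 15 largest differences in each direction among non-overlapping clusters with p under 0.01, up to 4 members of each list with the smallest p, defining markers and the study's table. Of these, the text gives the values its results turn on. Rdh9, Ang4, Rfx5 and P2ry14 were chosen by promoter match and p, and Cd8a, Scgb1a1 and Zbtb46 were added after their values were seen. The alternatives were LPE, only the 6 bleomycin arrays, an adjusted p under 0.01, weights per array, moderation with a trend and robust to outliers, normalization by cyclic loess or to equal array medians, a filter at a group mean of 6, the whole array, only clusters with 1 symbol, and leaving out each mouse.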

Additional observations from a re-analysis of the deposited data

Results flagged for a closer look

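1 cluster without a gene symbol, outside the 23410 that were tested, passed the test when all 35556 clusters were fitted together. It lay at 8.11, 7.60 and 7.77 in the WTT mice and at 12.13, 11.32 and 11.63 in the KOT mice, a difference of 3.87 (SE 0.44, adjusted p = 0.0382 from limma) that every mouse shows. With PBS the WTC mice lay at 11.08, 10.38 and 9.49 and the KOC mice at 10.83, 11.56 and 12.46, a difference of 1.30. The probe table used here lists no gene for it.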

How the results depend on the processing

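No paired analysis was possible because the groups share no replicate numbers. The 10 clusters past the threshold became 165 by LPE, 1 at an adjusted p under 0.01, 23 in a fit of only the 6 bleomycin arrays, 24 with array weights (21 higher and 3 lower), 3 with trended and robust moderation, 6 over all clusters of the array and 2 over clusters with exactly 1 symbol. The counts were 11 after cyclic loess, 10 with equal array medians and 10 with a group mean of at least 6. Leaving out 1 mouse at a time gave 1 to 16, lowest without KOT 72 and highest without KOC 67. For the difference of responses, LPE and the 6-array fit do not apply, and the count was 0 under the other alternatives except in the fits without 1 mouse, which gave 0 to 3 (1 without WTC 76 and 3 without KOC 67). The cause of these moves was not tested. Of the genes given with their differences, 2 that lay near 0 changed direction: with 1 mouse left out, Cd8a ranged from -0.0151 (without KOT 72) to 0.264 (without WTT 160) and Scgb1a1 from -0.00419 (without WTT 160) to 0.0505 (without WTT 164). Counting each gene once for each mouse left out, 1243 values stayed on their side of the threshold, 50 were no longer past it and 13 came to pass it. The 50 all come from the 10 clusters past the threshold, and most of the 1243 from genes that were not past it. Of the medians of the gene lists, 446 moved by less than the spread between mice under the other alternatives and 4 by more, 584 and 16 with 1 mouse left out. Many of these medians could not move, since KOT minus WTT does not depend on the PBS mice. The 6-array fit, trended moderation, the whole array and clusters with 1 symbol also leave them unchanged by design. The counts are therefore no measure of stability. H2-Ea passed throughout. With 3 mice a group and a median SE of 0.10, differences of genes that vary between mice, such as those of neutrophils and B cells, were not resolved.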
